A study of Homo sapiens with 2 samples.

Results

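Aminoacyl-tRNA synthetase genes were examined for S9.6 CUT&Tag peaks in A549, an established line of human lung cancer cells, grown as wild type with no treatment named in the labels. The 35 genes were taken from a list by symbol, and all were found among the 19974 protein-coding genes of chromosomes 1 to 22 and X. By where the enzyme works, 17 are cytosolic, 2 (GARS1 and KARS1) serve both compartments from a single gene, and 16 are mitochondrial. CUT&Tag uses an antibody to tether a transposase, which cuts and tags the DNA around it. S9.6 binds RNA-DNA hybrids, and hence R-loops. The labels give 1 library with S9.6 and 1 with non-specific IgG, both from wild-type A549 cells. The peak list of the S9.6 library was analysed; IgG was not analysed here, and there was no replicate. No test was run across the genes, which are not replicates of a condition, and intervals cover counting error only. Signal that depends on hybrids was not told apart from other tagging.

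Aminoacyl-tRNA synthetases join each amino acid to its matching tRNA and so set the link between codon and residue. In human cells the cytosolic and the mitochondrial enzymes are both encoded in the nucleus, for most amino acids by separate genes. Several cytosolic enzymes sit together in the multisynthetase complex, held by scaffold proteins, and many are induced by the transcription factor ATF4 when amino acids run short. R-loops form when a new transcript pairs again with its template strand, often just after the start of transcription at GC-rich promoters and where the displaced strand carries runs of G.

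Of 47810 deposited peaks, 45756 (95.7%) mapped to those chromosomes. Coverage was shallow: the median maximum coverage of these peaks was 2, and 9.54% reached 5 or more. Maximum coverage is the authors' value, the highest pile-up inside a peak, in whole numbers with no scaling seen. The sequencing depth is unknown, so genes listed with no peak may hold signal that the authors' threshold left out.

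The start windows of the members with the highest peaks at a gene end (CARS2, EARS2 and CARS1) are shown first, with that of HARS1, a gene that faces HARS2 head to head and had no peak at its start. HARS1 was added after its values were seen. Each window runs from 250 bases before to 50 bases after a RefSeq start on GRCh38.p14, 5′ to 3′ in the direction of the gene, and all lie on the minus strand. They cover chr13:110706466-110706765 for CARS2, chr16:23557301-23557600 for EARS2, chr11:3057374-3057673 for CARS1 and chr5:140691321-140691620 for HARS1. Capitals mark runs of 3 or more G on the strand that matches the RNA.
CARS2: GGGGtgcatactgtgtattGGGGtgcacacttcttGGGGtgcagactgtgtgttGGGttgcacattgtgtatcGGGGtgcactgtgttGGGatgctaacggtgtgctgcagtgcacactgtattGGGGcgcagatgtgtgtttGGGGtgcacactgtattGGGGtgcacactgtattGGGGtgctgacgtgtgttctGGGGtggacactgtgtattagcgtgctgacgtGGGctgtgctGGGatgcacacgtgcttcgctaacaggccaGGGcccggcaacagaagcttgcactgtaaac
EARS2: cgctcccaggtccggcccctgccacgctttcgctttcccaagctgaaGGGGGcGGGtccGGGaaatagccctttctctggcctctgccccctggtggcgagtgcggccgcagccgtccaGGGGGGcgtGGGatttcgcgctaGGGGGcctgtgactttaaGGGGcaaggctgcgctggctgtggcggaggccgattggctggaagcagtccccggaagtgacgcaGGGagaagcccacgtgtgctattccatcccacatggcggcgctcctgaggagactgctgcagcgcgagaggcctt
CARS1: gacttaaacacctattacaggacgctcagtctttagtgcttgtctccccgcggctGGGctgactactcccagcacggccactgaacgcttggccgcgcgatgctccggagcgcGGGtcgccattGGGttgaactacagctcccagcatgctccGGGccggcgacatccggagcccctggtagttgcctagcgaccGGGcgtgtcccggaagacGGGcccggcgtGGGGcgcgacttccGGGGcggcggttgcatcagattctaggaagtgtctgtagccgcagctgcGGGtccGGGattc
HARS1: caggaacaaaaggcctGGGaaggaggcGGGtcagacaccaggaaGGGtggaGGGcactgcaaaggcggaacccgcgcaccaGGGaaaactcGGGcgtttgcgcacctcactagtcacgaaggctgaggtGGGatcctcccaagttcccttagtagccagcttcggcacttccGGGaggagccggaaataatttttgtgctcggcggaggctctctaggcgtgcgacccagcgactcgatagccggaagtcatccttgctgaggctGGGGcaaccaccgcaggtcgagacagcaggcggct

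The CARS2 window shown is a G-rich repeat: it holds 14 such runs and 6 copies of GGGGTGCA. Its GC skew, (G - C)/(G + C) on this strand, was 0.333, higher than in 97.6% of windows at protein-coding starts. CARS2 has other start windows, not shown, and the mean skew over all its listed windows was lower, at 0.1265. A peak of maximum coverage 5 covered all 300 bases of the window shown. It is not a gene-end peak. The CARS2 peaks of 6 and 9 at the gene end had summits at -6478 and -8992 bp from the nearest listed start (negative: upstream). Reads from a repeat can have several places to map, and the treatment of such reads is not given in the sources used here. Its part in the peak of 5 was not tested. The windows shown for EARS2, CARS1 and HARS1 were closer to the middle of the distribution of skew. EARS2 and CARS1 also have other listed start windows, which are not shown. EARS2 held 8 G runs at a skew of 0.089, and its peak also covered all 300 bases. CARS1 held 10 runs at a skew of 0.031, with 266 bases under its peak. HARS1 held 9 runs at a skew of 0.114 with no base under a peak, a number of runs between those of EARS2 and CARS1.

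Read over the whole set, synthetase genes carried S9.6 peaks at their ends in 21 of 35 cases (60%, 95% Wilson interval 43.6 to 74.4), against 40.1% of all protein-coding genes. A gene end here means within 1000 bp of either boundary of the gene span, touched by at least 1 base of a peak. Counting a peak anywhere from 1000 bp before to 1000 bp after the span, 25 of 35 had one (71.4%, interval 54.9 to 83.7), against 60.4% of protein-coding genes. Their height was close to that at other protein-coding genes. The median of the highest boundary peak was 3 over the 21 genes and 4 over the 8001 protein-coding genes with one. A boundary peak of 5 or more stood at 5 of 35 members (14.3%), against 14.5% of all protein-coding genes.

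**Figure D1:**
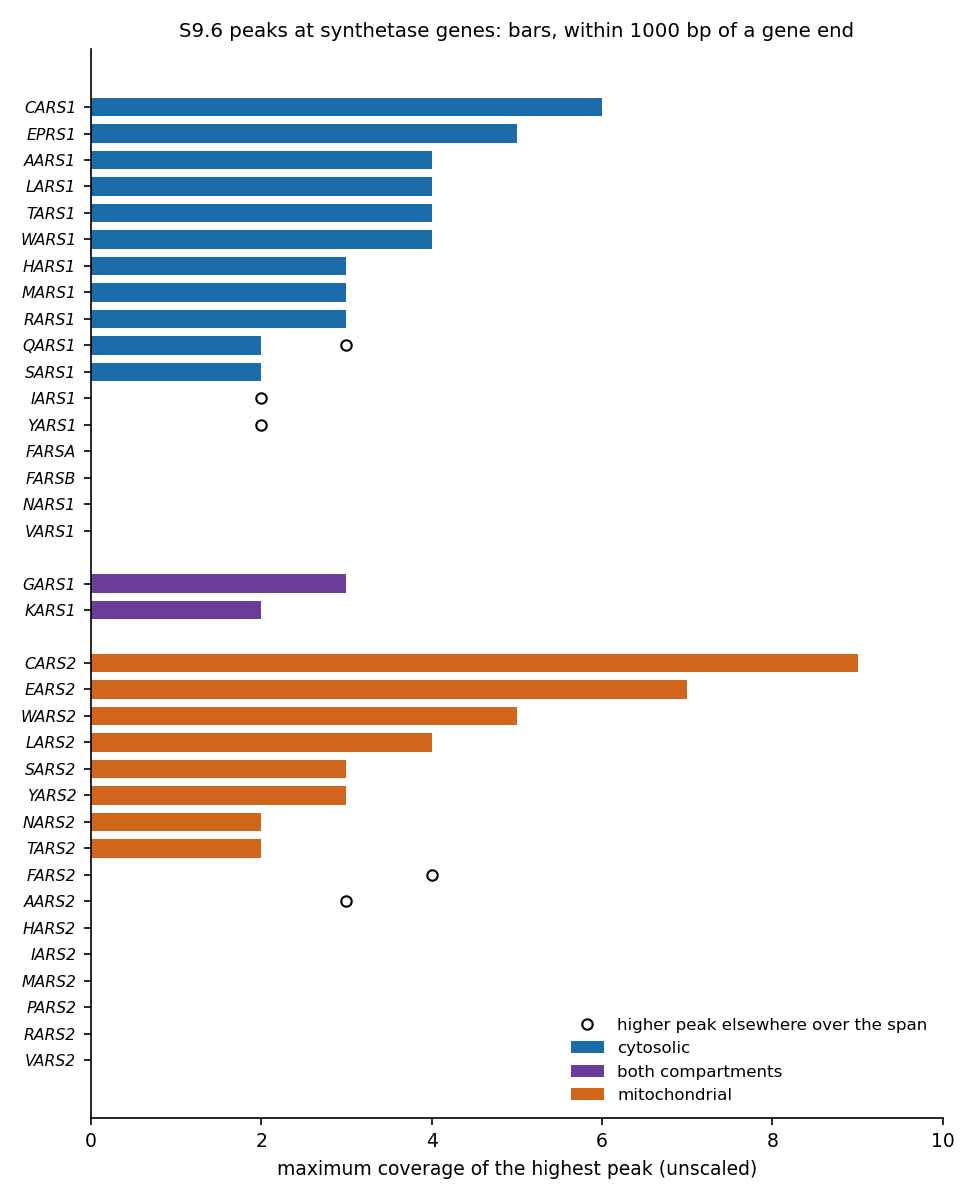
Maximum coverage (unscaled) of the highest S9.6 peak within 1000 bp of a gene end for each of the 35 synthetase genes, as bars, by where the enzyme works. Open circles mark genes with a higher peak elsewhere over the span. CARS2 reached 9, EARS2 7 and CARS1 6, and genes without bar or circle had no peak.

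Among cytosolic enzymes, 11 of 17 genes had a boundary peak and 13 of 17 a peak over the span. CARS1, the cysteine enzyme, was highest with 6, on chromosome 11 at 3057408 to 3057841. EPRS1, a single protein that charges both glutamate and proline, followed with 5, on chromosome 1 at 220046043 to 220046672. The alanine enzyme AARS1, the leucine enzyme LARS1, the threonine enzyme TARS1 and the tryptophan enzyme WARS1, which interferon induces, each reached 4. The histidine enzyme HARS1, the methionine enzyme MARS1 and the arginine enzyme RARS1 reached 3. The glutamine enzyme QARS1 and the serine enzyme SARS1 reached 2, the lowest height among members with a peak. QARS1 had a second peak of 3 inside the gene. The isoleucine enzyme IARS1 and the tyrosine enzyme YARS1 each had a single peak of 2 inside the gene and none at an end. No peak was listed over FARSA and FARSB, which encode the paired subunits of the phenylalanine enzyme, over NARS1 (asparagine) or over VARS1 (valine). FARSA lay 3841 bp from a peak of 8, whereas the nearest peak to FARSB was 40773 bp away and that to NARS1 50129 bp away.

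Both genes that serve the 2 compartments had a boundary peak. GARS1, the glycine enzyme, reached 3 just before its start and had a further peak of 2 inside the gene. KARS1, the lysine enzyme and a member of the multisynthetase complex, reached 2.

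Among mitochondrial enzymes, 8 of 16 genes had a boundary peak and 10 of 16 a peak over the span. CARS2 (cysteine) was highest of all 35 members with 9, on chromosome 13 at 110714357 to 110716322. That peak lay outside CARS2 and inside its neighbour ING1, a chromatin regulator, whose span runs from 110712623 to 110723339. CARS2 carried 5 peaks in all. Besides this one, a peak of 6 at its upstream end covered the near boundary of ING1. Another of 5 covered the start window shown above, and those deeper in the gene reached 2. EARS2, the mitochondrial glutamate enzyme, reached 7 on chromosome 16 at 23557084 to 23557986. WARS2 (tryptophan) reached 5. LARS2 (leucine) reached 4 and had a further peak of 2 deep inside the gene. SARS2 (serine) and YARS2 (tyrosine) reached 3, and NARS2 (asparagine) and TARS2 (threonine) reached 2. AARS2 (alanine) had a single peak of 3 inside the gene. FARS2, which encodes the phenylalanine enzyme in a span of 521650 bp, had 4 peaks and none at an end, the highest being 4. No peak was listed over HARS2 (histidine), IARS2 (isoleucine), MARS2 (methionine), PARS2 (proline), RARS2 (arginine) or VARS2 (valine).

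Heights this low differ little beyond counting error. Read as a count, a maximum of 9 has an exact 95% Poisson interval of 4.12 to 17.1 and a maximum of 2 one of 0.242 to 7.22, so even the ends of the range overlap. Overlapping reads of a pile-up are not independent molecules, and the order of the genes above is a description.

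A boundary peak was found at 64.7% of cytosolic genes (interval 41.3 to 82.7) and at 50% of mitochondrial genes (28.0 to 72.0). The difference was 14.7 percentage points with a 95% Newcombe interval of -17.4 to 43.1, which includes 0. Over spans the shares were 76.5% of cytosolic and 62.5% of mitochondrial genes, a difference of 14.0 points (-16.4 to 41.6). All protein-coding genes stood at 40.1% for boundaries and 60.4% for spans, so the span share of mitochondrial genes was near the background. The median of the highest boundary peak was 4 over the 11 cytosolic genes and 3.5 over the 8 mitochondrial genes, with a range of 2 to 6 in cytosolic and 2 to 9 in mitochondrial genes. Span lengths were alike, with a median of 32.8 kb in cytosolic and 28.4 kb in mitochondrial genes. The range was wider among mitochondrial genes, at 8.83 to 89.2 kb in cytosolic and 3.03 to 522 kb in mitochondrial genes. Peaks from 1000 bp before to 1000 bp after the span were pooled over the genes of a class and divided by span length without these flanks. Per 100 kb this gave 2.47 in cytosolic and 1.51 in mitochondrial genes. The value was 2.41 in all protein-coding genes. The mitochondrial value covers 1.26 Mb, of which FARS2 alone holds 522 kb, at 0.767 peaks per 100 kb. The 4 mitochondrial genes under 10 kb (HARS2, MARS2, PARS2 and YARS2) included 3 without a peak. The only other member of that length was QARS1, which had 2.

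**Figure D2:**
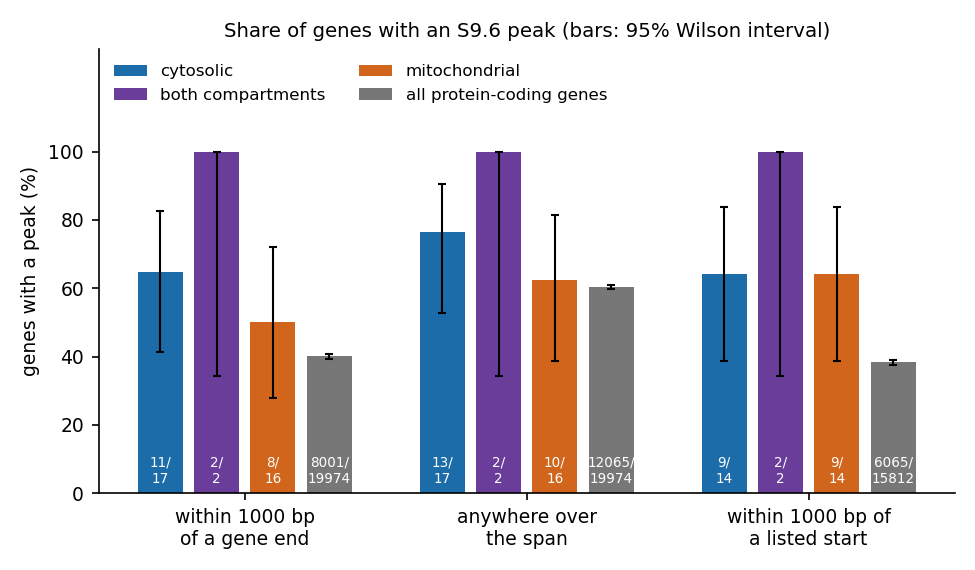
Share of genes (%) with an S9.6 peak within 1000 bp of a gene end, anywhere over the span, or within 1000 bp of a RefSeq start, for cytosolic, both-compartment and mitochondrial synthetase genes and all protein-coding genes. Lines are 95% Wilson intervals and the numbers in the bars are genes with a peak over genes counted. The cytosolic and mitochondrial intervals overlap in every set of bars.

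For 13 amino acids, separate genes encode the cytosolic and the mitochondrial enzyme under the same letter. Both genes had a boundary peak in 5 pairs: cysteine (6 at CARS1, 9 at CARS2), leucine (4 and 4), serine (2 at SARS1, 3 at SARS2), threonine (4 at TARS1, 2 at TARS2) and tryptophan (4 at WARS1, 5 at WARS2). The cytosolic gene alone had one in 4 pairs, those for alanine, histidine, methionine and arginine. The mitochondrial gene alone had one in 2 pairs, those for asparagine and tyrosine. Neither had one in 2 pairs, those for isoleucine and valine. Over spans, 7 pairs had a peak at both genes, and the valine pair alone had none at either.

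**Figure D3:**
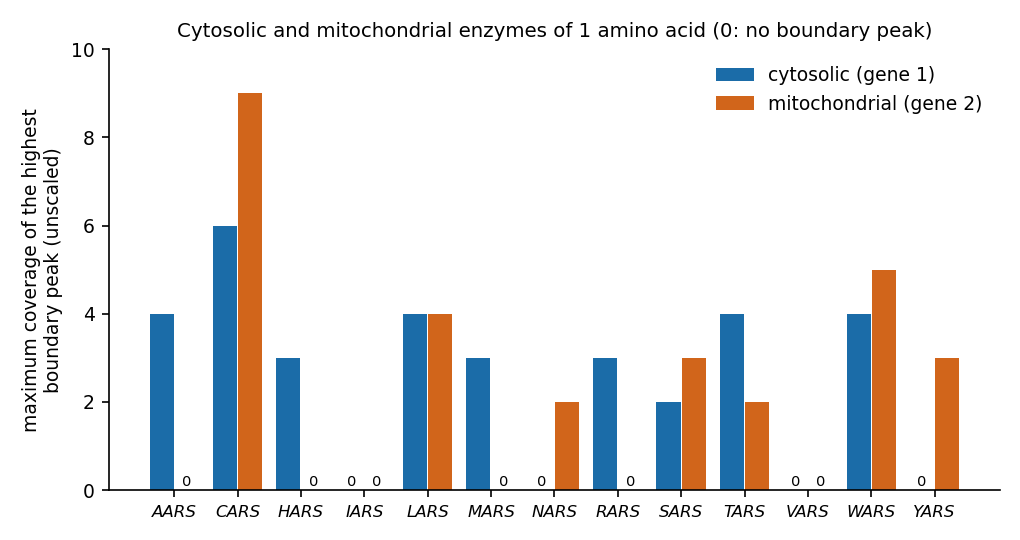
Maximum coverage (unscaled) of the highest boundary peak at the cytosolic and the mitochondrial gene for each of 13 amino acids; 0 means no boundary peak. The pair for cysteine was the highest on both sides, with 6 at CARS1 and 9 at CARS2.

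VARS1 and VARS2 both lie in the major histocompatibility complex on chromosome 6. Between the outer ends of ZFP57 and KIFC1, at 29672392 to 33409896, only 3 peaks were listed in 3.74 Mb. The mapped sequences include 7 alternate versions of this region, which held 26 peaks. The nearest peak on chromosome 6 was 62856 bp from VARS1 and 787665 bp from VARS2. Reads from these genes could map to the alternate sequences as well, so the lack of a peak and the choice of reference sequence cannot be told apart here.

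Peaks at synthetase genes lay at the start of transcription far more than at the end of the gene. RefSeq start sites were at hand for 30 of the 35 genes, and AARS2, LARS1, VARS1, VARS2 and YARS1 were left out of this step. A peak within 1000 bp of a listed start was found at 20 of 30 genes (66.7%, interval 48.8 to 80.8), against 38.4% of 15812 protein-coding genes with a listed start. At the downstream end of the span, 1 of 30 had a peak (3.33%, interval 0.591 to 16.7), against 11.4% of those protein-coding genes. That gene was HARS1, whose peaks of 2 and 3 flank its downstream end, and the one of 2 also lies at boundaries of its neighbours DND1 and WDR55. By starts, cytosolic and mitochondrial genes had the same count, 9 of 14 each (64.3%; difference 0 points, Newcombe interval -32.0 to 32.0). FARS2, whose listed starts lie inside its span under the peak of 4, counts here and not at gene ends, and HARS1 counts at gene ends and not here.

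Of the 39 peaks over the 35 genes, 20 covered or neighboured a start, 14 lay inside a gene, 2 lay at an upstream end away from any listed start, 2 at a downstream end and 1, at LARS1, at an end not assigned. The summits of start-site peaks were close to the start. In 18 of 20 (90%) the summit was within 300 bp, with a median of -94 bp, and 14 of 20 lay upstream. Among all 7020 peaks with a summit within 2000 bp of a protein-coding start, 51.2% lay within 300 bp. Their median was -28 bp, and 3745 of the 7020 lay upstream, so the whole list leaned the same way. The 2 sets were chosen by different windows, the members by any base within 1000 bp and the others by the summit. The summit at AARS1 lay at 1 bp, that at SARS1 at -2 bp and that at TARS1 at -25 bp. CARS1 (-331 bp) and YARS2 (615 bp) were the farthest on either side. Member peaks at a boundary had a median maximum of 3 and a median total signal of 1496, and those away from a boundary 2 and 1008. Over all peaks of the list the same contrast was 3 and 1232 at protein-coding boundaries and 2 and 964 inside genes.

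**Figure D4:**
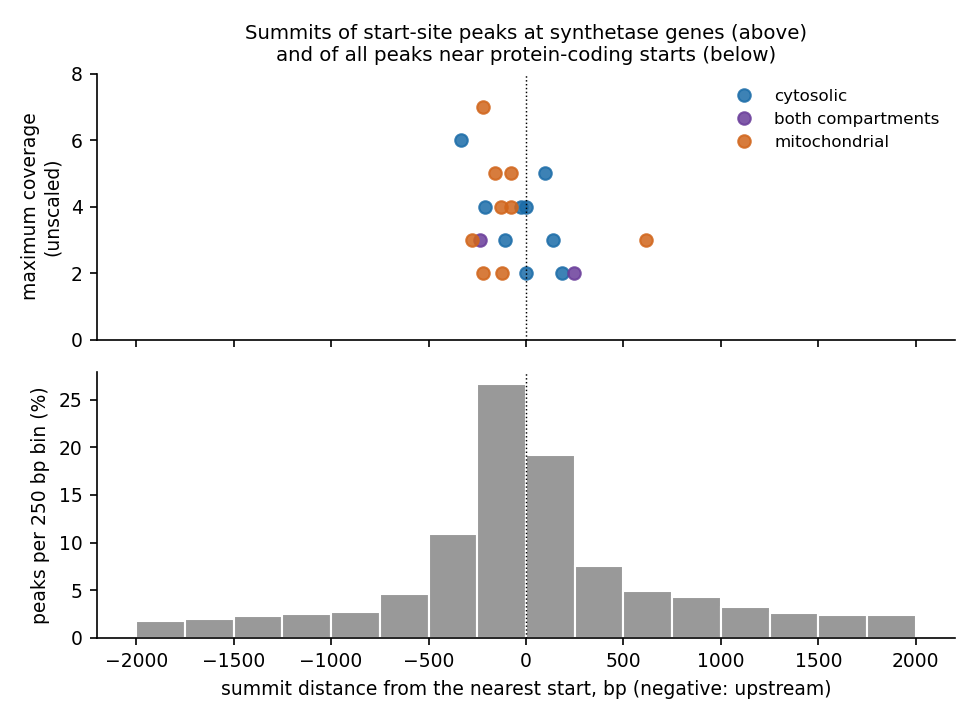
Top, maximum coverage (unscaled) of the 20 start-site peaks of synthetase genes by the distance in bp of the summit from the nearest start, negative upstream. Bottom, the share (%) in 250 bp bins of the 7020 peaks of the whole list with a summit within 2000 bp of a protein-coding start. All but 2 synthetase summits lie within 300 bp.

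Several of these starts face another gene, and such peaks cannot be given to 1 of the neighbours. Of the 20 start-site peaks, 10 also lay within 1000 bp of a boundary of another gene, lncRNA genes included. The same share was not counted over all start-site peaks, so it is not read as particular to synthetase genes. Head-to-head starts within 1000 bp were listed for 10 members, and 6 of those had a start-site peak (60%), against 56.1% of protein-coding genes of that arrangement. Of the 20 members with no such start listed, 14 had one (70%), against 33.3% of protein-coding genes. That class can still hold facing genes whose starts were not listed there: the span of DDX19B begins at 70289767, close to the start of AARS1 at 70289506. EARS2 faces UBFD1 at 352 bp, WARS1 faces WDR25 at 158 bp, and TARS1 faces the lncRNA TARS1-DT at 62 bp. SARS2 faces MRPS12, a mitochondrial ribosomal protein gene, at 181 bp, FARS2 faces LYRM4, of iron-sulfur cluster assembly, at 57 bp, and KARS1 faces TERF2IP, which encodes a telomere protein, at 108 bp. Each of these 6 pairs had a peak. HARS1 and HARS2, the cytosolic and mitochondrial histidine genes, face each other at 85 bp, and neither had a peak at its start. FARSB and RARS2, which faces ORC3 of the origin recognition complex at 148 bp, also had none.

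GC content of the start windows was close in members with and without a start-site peak. The median GC content of the start windows was 61.8% over the 30 members, against 62.3% over all protein-coding genes. It was 61.1% in the 20 members with a start-site peak and 62.3% in the 10 without. Over all protein-coding genes it was 65.3% in those with a start-site peak and 59.7% in those without. Of the 9 members with 50 to 60% GC, 8 had a start-site peak, while 33.1% of protein-coding genes in that range did. In the range from 60 to 70% it was 11 of 18 members, and 49.0% of protein-coding genes. Median GC skew was 0.0333 in members with a peak and 0.0395 in those without, and 0.0162 over all protein-coding genes. The median ratio of observed to expected CpG was 0.745 in members with a start-site peak and 0.934 in those without. Over all protein-coding genes the order was the other way, with 0.817 in those with a peak and 0.646 in those without. Runs of 3 or more C had a median of 6.5 in members with a peak and 4 in those without. Over all protein-coding genes these medians were 7.0 and 6.0. Runs of 3 or more G had a median of 5.5 in members with a peak and 6.0 in those without. For all protein-coding genes the medians of G runs were 8.0 and 6.0. The lowest GC content among members, 46.7%, was that of FARSB, which had no peak. At the other end, with 70% each, FARS2 had a start-site peak and MARS2 had none.

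**Figure D5:**
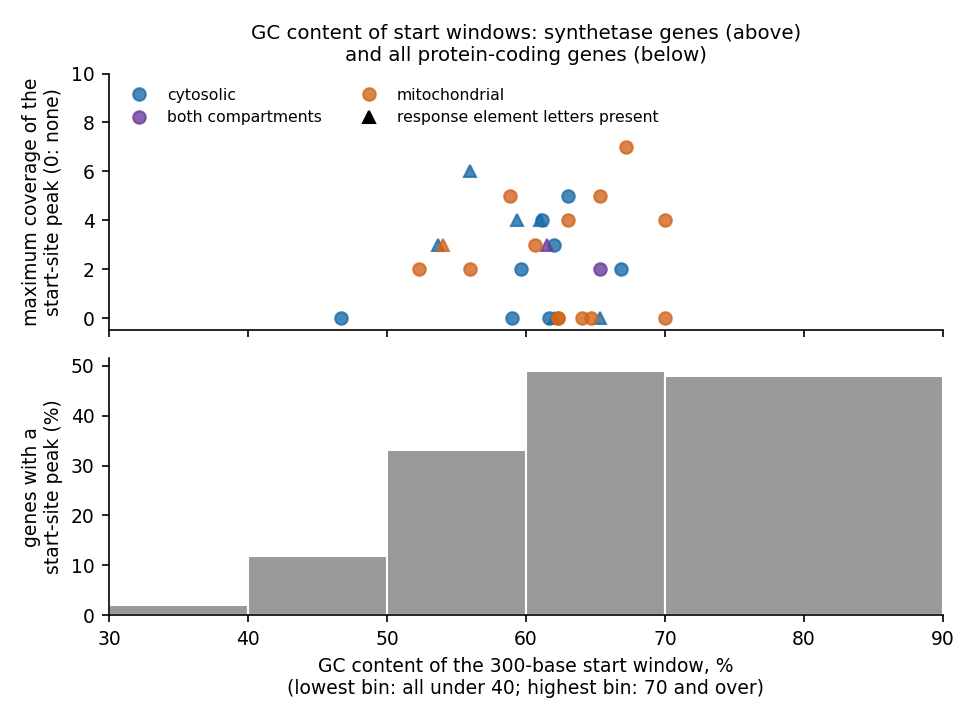
Top, maximum coverage (unscaled) of the start-site peak by GC content (%) of the start window for 30 synthetase genes, with 0 for no peak and triangles for windows that hold TGATGNAA. Bottom, the share (%) of protein-coding genes with a start-site peak by GC content. Of 18 members at 60 to 70% GC, 11 had a peak.

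The start windows of synthetase genes often held the letters TGATGNAA, the core of the C/EBP-ATF response element through which ATF4 acts. Both strands were searched, so the reverse complement TTNCATCA was counted, and a window could hold both. It was found in 8 of 30 members (26.7%), against 3.6% of protein-coding genes with a listed start. Of the 16 cytosolic or both-compartment genes 7 held it, and of the 14 mitochondrial genes only YARS2 did. The matches are shown in the direction of the gene with 10 bases on either side and the matched letters in capitals, from RefSeq windows on GRCh38.p14.
AARS1: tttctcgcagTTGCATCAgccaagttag
CARS1: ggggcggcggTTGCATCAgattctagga
GARS1: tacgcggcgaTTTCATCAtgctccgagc
IARS1: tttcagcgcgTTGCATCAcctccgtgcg
MARS1: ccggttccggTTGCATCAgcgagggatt
NARS1: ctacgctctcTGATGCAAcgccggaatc
TARS1: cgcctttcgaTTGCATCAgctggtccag
YARS2: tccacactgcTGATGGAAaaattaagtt

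AARS1, CARS1, IARS1, MARS1 and TARS1 read TTGCATCA, and NARS1 reads TGATGCAA, the same letters on the other strand. At CARS1, MARS1 and TARS1 the match lies within 4 bases of the start and under a peak, of 6 at CARS1, 3 at MARS1 and 4 at TARS1. At IARS1 and NARS1 it lies within 14 bases of the start with no start-site peak. At AARS1, GARS1 and YARS2 the gene had a start-site peak that did not cover the match. A start-site peak was present at 6 of 8 members with the letters, against 26.1% of protein-coding genes with them. Without the letters it was 14 of 22 members, against 38.8% of protein-coding genes. A match is a description of these windows and does not show binding of a factor.

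The multisynthetase complex holds EPRS1, IARS1, LARS1, MARS1, QARS1, RARS1 and KARS1. Of these 7 genes, 6 had a boundary peak (85.7%, interval 48.7 to 97.4), IARS1 being the exception, against 40.1% of all protein-coding genes. All 7 had a peak over the span, against 60.4%. Among the 11 cytosolic genes outside the complex, 6 had a boundary peak (54.5%, interval 28.0 to 78.7). The intervals overlap. Of the scaffold genes, AIMP2 reached 6 and AIMP1 reached 5 at their starts, and EEF1E1 had no peak. AIMP1 and AIMP2 each share that peak with a neighbour, TBCK and PMS2.

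Genes linked to the synthetases were counted from lists of textbook partners. The lists hold the complex scaffolds, partners in charging and proofreading, mitochondrial charging partners, carriers of charged tRNA and genes of the amino acid response. A boundary peak stood at 16 of these 20 (80.0%, Wilson 58.4 to 91.9), against 40.1% of all protein-coding genes. A peak over the span was found at 18 (90%), against 60.4%, and a boundary peak of 5 or more at 8 (40%), against 14.5%. A peak of that height stood at 2 of 3 scaffolds, 3 of 3 carriers and 2 of 4 amino acid response genes. Among charging and proofreading partners it was 1 of 6, and among mitochondrial charging partners 0 of 4. All 6 partners in charging and proofreading had a boundary peak: AARSD1, DTD1 and DTD2, which clear wrongly charged tRNA, TRNT1, which adds the CCA end, and SEPSECS and PSTK, which make selenocysteine on its tRNA. DTD1 reached 5 and the others 3. All 3 carriers of charged tRNA had one, with 9 at TUFM, the mitochondrial elongation factor, 8 at EEF1A1 and 5 at EEF1A2, its cytosolic counterparts. In mitochondria, glutamine tRNA is charged by way of an amidotransferase. Its subunit genes GATB and QRSL1 had no boundary peak and GATC one of 2, while MTFMT, which formylates the initiator tRNA, had one of 3. In the amino acid response, DDIT3, which encodes the factor CHOP, reached 7, ATF4 6 and the sensor kinase EIF2AK4 3. The DDIT3 peak also covers a boundary of MBD6, and the ATF4 peak of 6 lies at its downstream end. The TUFM peak also lies within 1000 bp of a boundary of SH2B1, and the GATC peak within 1000 bp of a boundary of TRIAP1. The boundary peaks of DTD1, EEF1A2, SEPSECS and TRNT1 likewise lie that close to a boundary of another gene. ASNS, the asparagine synthetase, had no boundary peak but one of 3 at a listed start inside its span.

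Span length was compared in bands. From 10 to 50 kb, 12 of 18 members had a boundary peak, against 43.9% of protein-coding genes, and 14 a peak over the span, against 61.4%. Under 10 kb it was 2 of 5 at boundaries, against 38.4%. From 50 to 100 kb it was 4 of 8, against 40.7%, and above that 3 of 4, against 33.7%. Each band holds few members, and no order is read from them.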

How the data were processed

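R-loop CUT&Tag was deposited for A549 cells with S9.6 and with IgG. The peak list of the S9.6 library was used. Its total and maximum signal per peak are the authors' deposited values, read from the values as summed and highest coverage: width times maximum was never below the total in any of 47810 peaks. Per the submitters' processing notes the build was GRCh38 and the tools, with no role stated, were SEACR 1.3, deepTools 3.5.2, Bowtie2 2.4.2, bedtools 2.30.0, SAMtools 1.9 and fastp 0.23.2. How peaks were thresholded, and whether IgG served as control, is not given in the sources used here.

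Gene spans, start windows and strands came from RefSeq tables of GRCh38.p14, and 35 of 35 symbols matched. Overlaps, Wilson and Newcombe intervals were computed in Python 3.11.15 (pandas 2.3.3, scipy 1.17.1, statsmodels 0.14.6), and the overlap code was checked on intervals with known answers. A gene with several start windows took their mean composition, and any match of the motif. The summit is the middle of the authors' maximum region. Members and lists were chosen with earlier results of these data known, so no p is given. Every listed gene is named. Alternatives changed the peak threshold, the overlap, the window and the members in the major histocompatibility complex.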

Additional observations from a re-analysis of the deposited data

How the results depend on the processing

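All 36 recounts (6 counts under 6 alternatives) stayed within 1.5 times the reported count. With windows of 500 or 2000 bp, or with the summit in place of any base, the members' counts were as reported: 21 of 35 at boundaries and 25 of 35 over spans. The share of all protein-coding genes at boundaries moved between 35.3% and 45.8% with the windows. Keeping only peaks that reached a maximum of 3, 16 of 35 members had a boundary peak (45.7%), against 32.2% of protein-coding genes; for cytosolic genes it was 9 of 17 and for mitochondrial genes 6 of 16. The 22878 peaks with the highest total signal gave the same 3 counts, against 30.4%. Over spans they gave 7 of 16 mitochondrial genes (43.8%), against 45.5%, below the background where the whole list gave 62.5% against 60.4%. Without VARS1 and VARS2, boundary counts were 21 of 33 (63.6%), and 11 of 16 cytosolic against 8 of 15 mitochondrial genes. No paired analysis was possible because there was 1 library. Shallow coverage limits all heights.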
